A study of Mus musculus with 15 samples.

Results

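This account covers 7 genes of serine synthesis and folate one-carbon metabolism in mouse intestinal epithelium: Phgdh, Psat1, Psph, Shmt1, Shmt2, Mthfd1 and Mthfd2. They were chosen by name, all 7 were present among the 17185 genes of the count table, and all 7 passed the filter on low counts. Cells came from Lgr5-eGFP-IRES-CreERT2 mice aged 6 months, and every mouse, controls included, carried this allele, which places the reporter and an inducible recombinase under Lgr5, the receptor gene that marks crypt base stem cells. Of the 5 mice, 2 ate a purified control diet in which fat gave 10% of the kcal and 3 ate a high fat diet in which it gave 60%, and each gave proximal small intestine, distal small intestine and colon, so that there were 15 samples. RNA was read by Seq-Well with second strand synthesis, a microwell method that counts unique molecular identifiers (UMIs), and each sample is labelled with a single mouse.

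Serine is made from a glycolytic intermediate in 3 steps. Phgdh encodes the phosphoglycerate dehydrogenase that opens the route, Psat1 the aminotransferase of the next step and Psph the phosphatase that releases serine. The hydroxymethyltransferases Shmt1 (cytosolic) and Shmt2 (mitochondrial) then turn serine into glycine and load the carbon onto folate, and Mthfd1 (cytosolic) and Mthfd2 (mitochondrial) interconvert the folate-bound carbon units that feed purine and thymidylate synthesis. Crypt cells divide fast and draw on these products for DNA. In GRCm38.p6 as annotated by RefSeq the genes lie apart, on chromosomes 3 (Phgdh), 19 (Psat1), 5 (Psph), 11 (Shmt1), 10 (Shmt2), 12 (Mthfd1) and 6 (Mthfd2).

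The table held 18919 cells, of which 4618 carried the authors' stem call and 14301 did not. The call was equal to at least 1 UMI of Lgr5 or of the eGFP reporter in all 18919 cells, so it depends on the depth of a cell. UMIs were summed per mouse, organ and stem call, and a level is given as CPM, the UMIs of a gene per 1000000 UMIs of that sum. The sums of stem-called cells held 321496 to 13694552 UMIs from 27 to 617 cells. Control mouse 2 and high fat mouse 3 were sequenced more deeply than the other mice in the distal small intestine and colon. In the colon of high fat mice 1 and 2, stem-called cells had a median of 18430 and 10401 UMIs against 4264 and 2588 in the remaining cells, and their stem-called sums rest on 79 and 27 cells. Of 18898 distinct barcodes, 16 occurred in more than 1 library. The summed level of 8 epithelial markers was 6342 to 11507 CPM in stem-called cells, while the stromal and endothelial markers summed to at most 6.7. A list of 8 stem cell markers (which includes Lgr5, used by the call) summed to 7907 to 11781 in stem-called cells of the small intestine and to 3413 to 4495 in those of the colon, where Olfm4 was at 0. Stem-called sums of the distal small intestine also held Paneth cell transcripts, at 2681 and 2161 CPM in the control mice and at 1886, 8934 and 15766 in the high fat mice. Nothing in the labels ties a library to a batch.

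Phgdh in stem-called cells was higher in the colon than in either part of the small intestine. In the proximal small intestine it stood at 25.4 and 27.5 CPM in control mice 1 and 2 and at 21.9, 37.7 and 39.7 in high fat mice 1 to 3. In the distal small intestine the control mice had 18.2 and 19.9, and the high fat mice had 31.8, 28.6 and 47.4. In the colon the control mice had 34.9 and 69.4, and the high fat mice had 68.1, 62.2 and 71.1. Control mouse 1 was the low colon sample, inside the range of the small intestine. The other 4 colon samples lay above all 10 samples of the small intestine, and that of high fat mouse 2 rests on 20 UMIs. Fitted over all genes with edgeR's quasi-likelihood test, the log2 difference of colon against proximal was 1.00 ± 0.21 (SE; adjusted p = 0.00276) and that of colon against distal was 1.14 ± 0.21 (SE; edgeR adjusted p = 0.00182). Without control mouse 2 these edgeR values were 0.72 (adjusted p = 0.0677) and 0.85 (adjusted p = 0.0739), past neither threshold.

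Psat1 showed no called difference between organs. Its levels in the proximal small intestine were 19.2 and 30.1 CPM in the control mice and 18.9, 33.9 and 41.3 in the high fat mice. In the distal small intestine they were 27.0 and 32.4 against 34.9, 42.9 and 58.5. In the colon they were 14.2 and 36.7 against 27.0, 24.9 and 38.0. The colon values of control mouse 1 and high fat mouse 2 rest on 24 and 8 UMIs. Psph, which ends the route, was the member with the fewest UMIs, and its sum in the colon of high fat mouse 2 rests on 3 UMIs. Its means were 13.1 ± 1.7 in the proximal small intestine, 11.0 ± 3.6 in the distal small intestine and 11.8 ± 2.4 in the colon (SD, n = 5 mice each), and the 3 ranges overlapped. Thus only the entry enzyme of the 3 had a called organ difference; whether it differed from the other 2 enzymes was not tested.

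**Figure D1:**
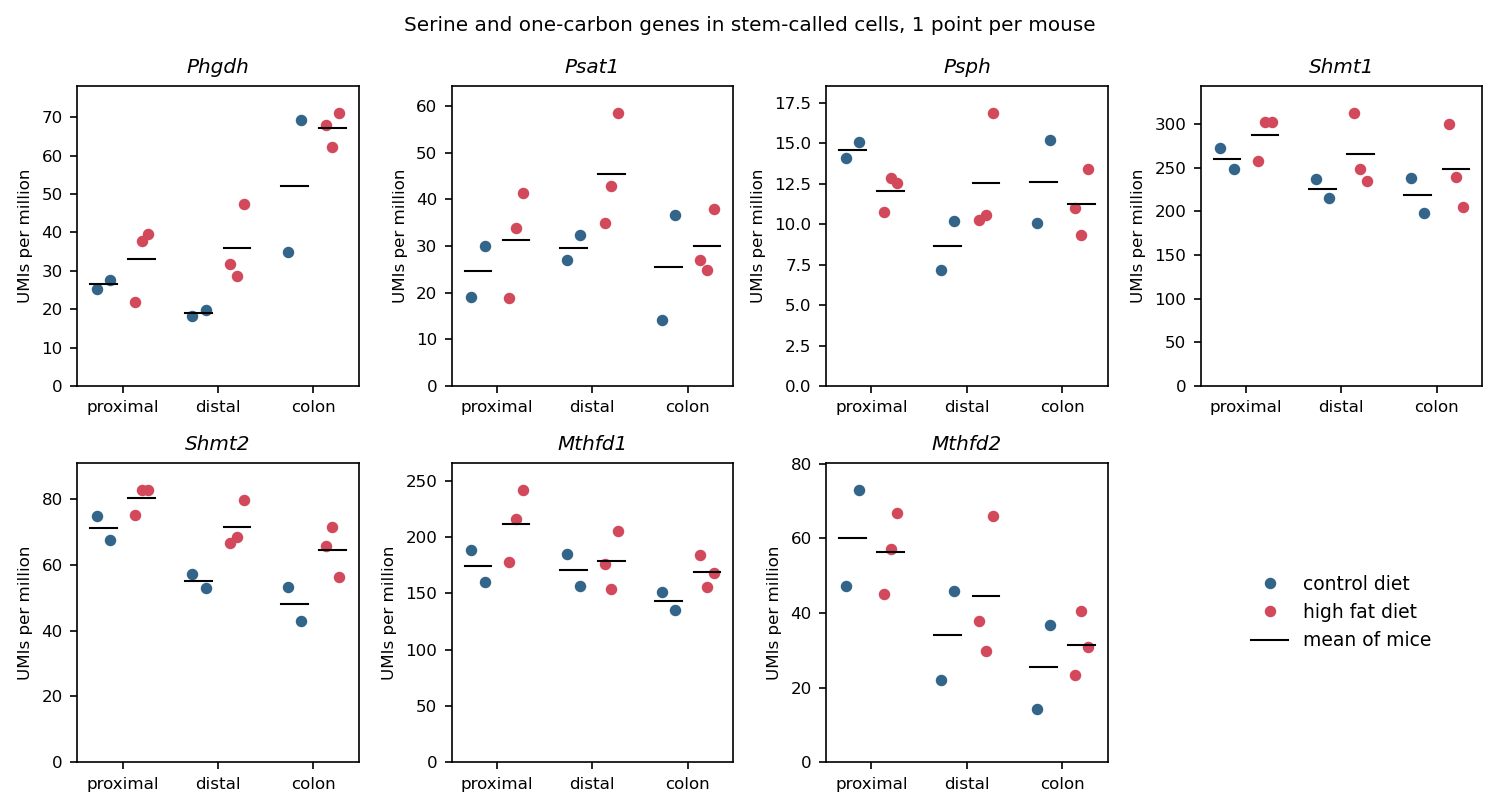
Level of each of the 7 genes in stem-called cells, in CPM of the summed cells (vertical axis), by organ (horizontal axis) and diet (colour); each point is 1 mouse and each line the mean of the 2 control or 3 high fat mice. Phgdh is high in 4 of the 5 colon samples, and Mthfd2 is lower in the 5 colon samples than in the 5 proximal ones. The highest colon point of Mthfd2 rests on 13 UMIs.

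Shmt2, the mitochondrial hydroxymethyltransferase, was lower in colon stem-called cells than in proximal ones. Its level in the proximal small intestine was 74.6 and 67.5 CPM in the control mice and 75.2, 82.7 and 82.7 in the high fat mice. In the distal small intestine it was 57.2 and 52.9 against 66.5, 68.4 and 79.6. In the colon it was 53.2 and 42.9 against 65.6, 71.5 and 56.3. Every mouse had less Shmt2 in the colon than in its own proximal small intestine, and the share of all genes that did so was not counted. The log2 difference of colon against proximal was -0.47 ± 0.12 (SE; edgeR adjusted p = 0.0136). That call was lost without control mouse 2 (-0.44, edgeR adjusted p = 0.102), without high fat mouse 3 (-0.41, edgeR adjusted p = 0.106) and with the stem call made after thinning each cell to 3000 UMIs, which leaves out 961 of the 18919 cells as too shallow (-0.33, edgeR adjusted p = 0.302). Shmt1, the cytosolic enzyme, had means of 277 ± 25 in the proximal small intestine, 250 ± 37 in the distal small intestine and 237 ± 40 in the colon (SD, n = 5 mice each). Its organ ranges overlapped and none of its organ differences was called.

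Mthfd2, the mitochondrial dehydrogenase and cyclohydrolase that tumours and dividing cells are known to express, had the largest fall along the gut of the 7 genes. In the proximal small intestine it was 47.3 and 73.0 CPM in the control mice and 45.1, 57.2 and 66.8 in the high fat mice. In the distal small intestine it was 22.01 and 46.0 against 37.9, 29.9 and 65.9. In the colon it was 14.2 and 36.7 against 23.3, 40.4 and 30.8. All 5 colon samples lay below all 5 proximal samples, and the share of all genes with such a gap was not counted. The highest colon value, in high fat mouse 2, rests on 13 UMIs, and that of control mouse 1 rests on 24. The log2 difference of colon against proximal was -1.09 ± 0.30 (SE; edgeR adjusted p = 0.0175). It was not called without high fat mouse 1 (-1.07, edgeR adjusted p = 0.0534) or without high fat mouse 3 (-1.04, edgeR adjusted p = 0.0646). With the mouse kept as a block, which uses the fact that each mouse gave all 3 organs, Mthfd2 was also called lower in the distal than in the proximal small intestine (-0.57, edgeR adjusted p = 0.0157) and lower in the colon than in the distal small intestine (-0.60, edgeR adjusted p = 0.0177).

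Mthfd1, the cytosolic enzyme that carries 3 activities of the folate cycle, varied little. Its means were 197 ± 32 CPM in the proximal small intestine, 176 ± 21 in the distal small intestine and 159 ± 18 in the colon (SD, n = 5 mice each). Colon against proximal gave -0.31 ± 0.12 (SE; edgeR adjusted p = 0.0992), and the call was made with the mouse as a block (-0.31, edgeR adjusted p = 0.0206).

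Of the 7 genes, 1 rose (Phgdh) and 2 fell (Shmt2 and Mthfd2) in the colon against the proximal small intestine, where 18.2% of the 12339 genes tested were called. Against the distal small intestine 1 was called, beside 12.8% of all genes. Between the distal and the proximal small intestine edgeR called 0, beside 5.46% of all genes; 0 had an unadjusted p under 0.05, beside 13.7%, and DESeq2 called 0. The median log2 difference of the 7 was -0.24 for colon against proximal, -0.20 for colon against distal and -0.15 for distal against proximal, beside 0.0040, -0.0028 and 0.00026 over all genes. The opposite directions of Phgdh and Mthfd2 were present in each mouse. All 5 had more Phgdh and less Mthfd2 in the colon than in the proximal small intestine. The share of all genes with the same direction in all 5 mice was not counted. Genes of DNA replication, a list of 12, summed to 1849 to 2237 CPM in proximal, 1528 to 2116 in distal and 1281 to 1890 in colon stem-called cells, and their part in the organ differences was not tested.

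**Figure D2:**
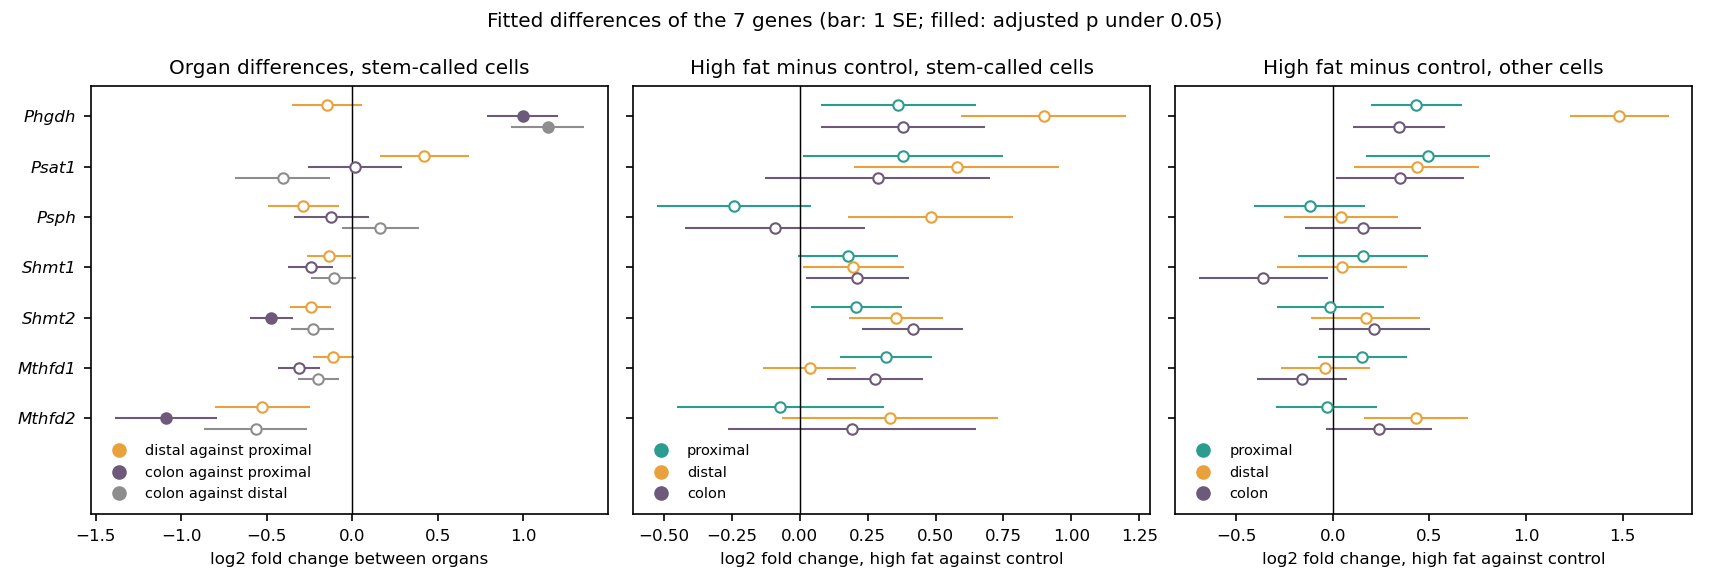
Fitted log2 fold changes (horizontal axis) of the 7 genes with 1 SE to each side, for the 3 organ comparisons in stem-called cells and for high fat against control diet in stem-called and in the remaining cells; filled points have an adjusted p under 0.05. Filled points occur only in the organ panel, for Phgdh on the high side and for Shmt2 and Mthfd2 on the low side; in the diet panels the point farthest from 0 is Phgdh in the distal small intestine.

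The next comparison asked whether the high fat diet changed these genes in stem-called cells of each organ. No member was called in any organ, and the member nearest to a call was Phgdh in the distal small intestine. A missing call is weak evidence here. In simulated counts for proximal stem-called cells, 21% of genes changed 2-fold by diet and 71% of those changed 4-fold were called. By edgeR 0 of 7 were called in proximal, distal and colonic stem-called cells, beside 0.122%, 0.0081% and 0.0% of all genes. At an unadjusted p under 0.05 the counts were 0, 1 and 1, beside 3.72%, 2.67% and 2.54%, and DESeq2 called 0 in each organ. Phgdh in the distal small intestine had a log2 difference of 0.90 ± 0.30 (SE; unadjusted p = 0.0102, edgeR adjusted p = 1), and the 3 high fat mice lay above both control mice. The difference was 1.21 between the 2 deeper mice, high fat 3 and control 2, and 0.70 among the 3 shallower ones. Shmt2 in the colon had 0.42 ± 0.19 (SE; unadjusted p = 0.0414, edgeR adjusted p = 1), again with no overlap between the diets. That value was 0.23 without control mouse 2, and it lay between 0.33 and 0.56 with any other mouse left out. In the distal small intestine, the 8 stem cell markers summed to 8526 to 9153 CPM in control and 8413 to 11781 in high fat mice, and the 10 mitosis genes to 1412 to 2605 and 1935 to 3236. The part of these and of the Paneth cell transcripts in the Phgdh values was not tested.

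Counted by overlap alone, every high fat mouse stood above every control mouse for 4 of the 7 genes in distal stem-called cells (Phgdh, Psat1, Psph and Shmt2), beside 7.98% of all genes. For Psph this was a near tie, with 10.25 CPM in high fat mouse 1 (47 UMIs) and 10.18 in control mouse 2 (131 UMIs). The number of such genes was 2 in the colon (Shmt2 and Mthfd1), beside 5.87%, and 1 in the proximal small intestine (Shmt2), beside 7.31%. In the proximal small intestine Psph was lower in every high fat mouse, beside 9.78% of all genes. The median log2 difference of the 7 was 0.21, 0.35 and 0.28 in the same order of organs (proximal, distal, colon), beside 0, 0.0029 and 0 over all genes. Shmt2 was higher in every high fat mouse in all 3 organs, beside 0.219% of all genes, at log2 differences of at most 0.42. In the proximal small intestine this was a near tie, with 75.2 CPM in high fat mouse 1 and 74.6 in control mouse 1. The colon value of high fat mouse 2 rests on 23 UMIs, and the 3 organs came from the same mice. The diet differences of 2 organs were also compared with each other: edgeR called 0 of 7 in each of the 3 such comparisons, beside 0.0% of all genes. At an unadjusted p under 0.05 there were 0 of 7 in each, beside 1.44% to 1.74% of all genes, and DESeq2 called 0. For Phgdh the diet difference in the distal minus that in the proximal small intestine was 0.53 ± 0.41 (SE; edgeR adjusted p = 1.0).

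The cells without the stem call were a mixture of dividing progenitors, absorptive, secretory and immune cells. They could also hold stem cells in which no UMI of Lgr5 or eGFP was read. Among these cells Phgdh again had the largest diet difference, in the distal small intestine. It stood there at 6.70 and 4.38 CPM in control mice 1 and 2 and at 16.6, 15.7 and 14.8 in high fat mice 1 to 3. The 3 high fat values lay close together and above both control values. The log2 difference was 1.48 ± 0.26 (SE; unadjusted p = 6.98e-05), which edgeR did not call (adjusted p = 0.333). DESeq2 gave 1.51 and called it (adjusted p = 0.000315). The difference was 1.56 between the deeper and 1.15 among the shallower mice, and it stayed between 1.12 and 1.79 whichever mouse was left out. In the same cells the stem cell markers summed to 1434 to 2149 in control and 2065 to 3674 in high fat mice, the Paneth cell markers to 601 to 643 and 1413 to 6545, and the enterocyte markers to 1046 to 3383 and 1394 to 1508. Enteroendocrine markers summed to 994 to 1105 in control and 1365 to 2303 in high fat mice, and goblet cell markers to 6272 to 12677 and 8377 to 18922. The part of these shifts in cell content was not tested.

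Elsewhere among cells without the stem call, proximal Phgdh was at 13.5 and 15.04 in control mice and at 14.6, 17.9 and 23.6 in high fat mice. In the colon the control values were 22.9 and 21.2 and the high fat values 33.9, 24.1 and 27.5. By edgeR 0 of the 7 were called in proximal, distal and colonic cells of this kind, beside 0.0839%, 0.00699% and 0.0% of 14307 genes. The unadjusted counts were 0, 1 and 0, beside 3.1%, 2.01% and 3.44%. DESeq2 called 0, 1 and 0, beside 0.387%, 0.101% and 0.0292% of the genes it tested. Every high fat mouse stood above every control mouse for 0, 2 (Phgdh and Mthfd2) and 2 (Phgdh and Psat1) of the 7, beside 5.98%, 9.56% and 6.77% of all genes. For distal Mthfd2 this was a near tie, with 42.83 CPM in high fat mouse 2 and 42.61 in control mouse 2. The colon margins were also narrow, at 24.1 (41 UMIs) against 22.9 for Phgdh and 22.5 against 21.6 for Psat1.

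Stem-called cells were then set beside the remaining cells of the same mouse and organ, as a description without a test, since the call rests on 2 genes of the same cells. Phgdh was higher in the stem-called cells of every mouse in every organ. Its mean log2 ratio was 0.80 ± 0.18 in the proximal small intestine, 1.32 ± 0.48 in the distal small intestine and 1.18 ± 0.41 in the colon (SD, n = 5 mice each). Shmt1 followed with 0.46 ± 0.12, 0.85 ± 0.22 and 1.05 ± 0.48, and Shmt2 with 0.35 ± 0.13, 0.38 ± 0.21 and 0.68 ± 0.39, both positive in all mice (SD, n = 5 mice each). Mthfd1 was higher in all 5 mice in the distal small intestine and colon. Psph and Mthfd2 had no direction shared by every mouse: Mthfd2 was higher in 3, 2 and 3 of 5 mice and Psph in 3, 1 and 4. Their mean ratios in the distal small intestine were -0.18 for Psph and -0.20 for Mthfd2.

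In total 4 of the 7 were higher in every mouse in the proximal small intestine, 5 in the distal small intestine and 4 in the colon, beside 25.9%, 23.2% and 17.3% of all genes. With the call made at 3000 UMIs the counts were 2, 2 and 3, beside 16.5%, 19.5% and 10.5%. Phgdh was among these genes in each organ, with mean ratios of 0.64, 1.07 and 1.09. So was Shmt1, with mean ratios of 0.32, 0.75 and 0.81. Shmt2 was not, and was higher in 4 of 5 mice in each organ, with mean ratios of 0.09, 0.23 and 0.56. Psat1 in the proximal small intestine went from 0.21 with the deposited call to -0.04 with the call at 3000 UMIs. With the latter call Mthfd2 was higher in 2, 1 and 1 of 5 mice, with mean ratios of -0.10, -0.34 and -0.20. Psph was higher in 1, 2 and 3 of 5 mice, with mean ratios of -0.02, -0.31 and 0.19. Cells too shallow for that call were left out, among them 162 of 2397 cells of the control and 323 of 1975 of the high fat colon, and the stem-called pools of the colon in high fat mice 1 and 2 then held 21 and 14 cells. With the deposited call, the gap in depth between the pools of these mice given above applies.

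**Figure D3:**
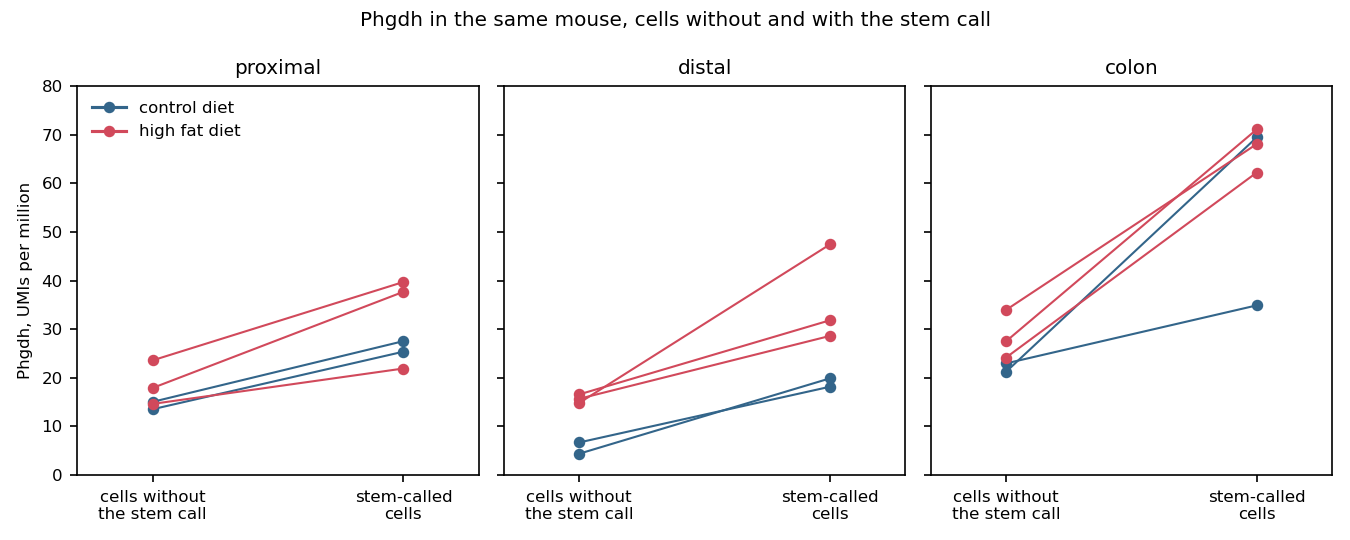
Phgdh in CPM (vertical axis) in cells without and with the stem call, by organ (panels); each line joins the 2 pools of 1 mouse, coloured by diet. All 15 lines rise, and in the distal small intestine the 3 high fat lines start and end above the 2 control lines.

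Within the stem-called cells, those with at least 1 UMI of 10 mitosis genes, counted after thinning to 3000 UMIs, were set beside those with none. Of the 4618 stem-called cells, 81 with fewer UMIs were left out. This split was also described without a test, and the colon has 4 libraries because high fat mouse 2 held too few cells. Phgdh, Psat1 and Mthfd1 were higher in the cells with mitosis transcripts in every library of all 3 organs. For Psat1 the mean log2 ratios were 0.98 ± 0.23 (SD, n = 5) in the proximal small intestine, 0.80 ± 0.37 (SD, n = 5) in the distal small intestine and 1.73 ± 0.99 (SD, n = 4) in the colon. The colon ratios of Psat1 ran from 0.51 to 2.93. The highest, in control mouse 2, set 45.9 CPM against 5.16 CPM from 34 cells without mitosis transcripts. For Phgdh the mean ratios were 0.48 ± 0.37, 0.76 ± 0.18 and 0.75 ± 0.20. For Mthfd2 they were 0.79 ± 0.40, 0.69 ± 0.77 and 1.303 ± 0.258, with 1 distal library on the other side. Shmt1 had means of 0.11, 0.28 and -0.09 and was higher in 4 of 5, 5 of 5 and 2 of 4 libraries.

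In all, 5, 4 and 4 of the 7 were higher in every library, beside 14.1%, 15.6% and 16.4% of all genes. Tyms, the thymidylate synthase that consumes a folate-bound carbon for DNA, served as a reference and had ratios of 1.58, 1.42 and 1.44. Cells with mitosis transcripts were deeper before thinning in 13 of 15 libraries, and the part of depth in the ratios was not tested.

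**Figure D4:**
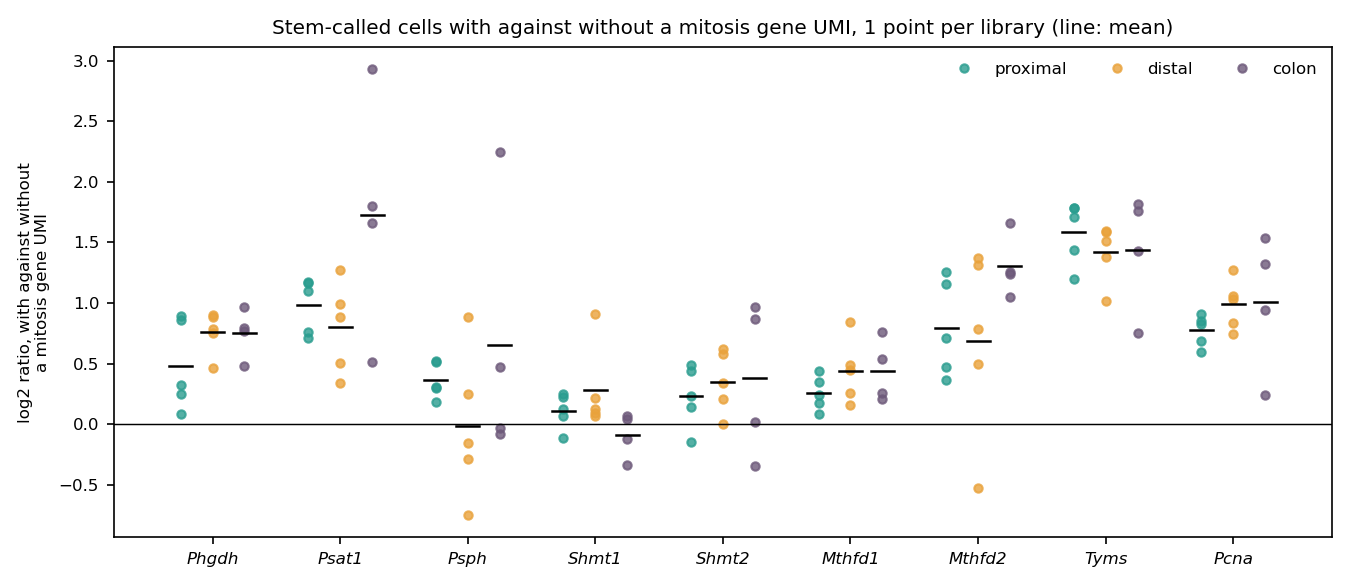
Log2 ratio of the level in stem-called cells with a mitosis gene UMI to the level in those without (vertical axis) for the 7 genes and for Tyms and Pcna as replication references; each point is 1 library, coloured by organ, and each line a mean. Phgdh, Psat1 and Mthfd1 lie above 0 in every library, and the means of Shmt1 run from -0.09 to 0.28.

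The start regions of the 3 genes that were higher in every library of that split are shown for reference, from RefSeq on GRCm38.p6, 250 bases before to 50 after an annotated start and read 5′ to 3′ on the gene's strand. Capitals mark the CCAAT box (CCAAT or, on the other strand, ATTGG) and the GC box (GGGCGG or CCGCCC).
Phgdh, chr3:98339920-98340219, minus strand: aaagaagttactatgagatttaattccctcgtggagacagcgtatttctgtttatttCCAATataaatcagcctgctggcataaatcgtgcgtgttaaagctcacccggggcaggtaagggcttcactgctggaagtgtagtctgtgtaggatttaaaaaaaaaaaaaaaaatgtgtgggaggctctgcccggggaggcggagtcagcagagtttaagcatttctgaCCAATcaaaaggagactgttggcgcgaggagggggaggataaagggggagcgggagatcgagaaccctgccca
Psat1, chr19:15925010-15925309, minus strand: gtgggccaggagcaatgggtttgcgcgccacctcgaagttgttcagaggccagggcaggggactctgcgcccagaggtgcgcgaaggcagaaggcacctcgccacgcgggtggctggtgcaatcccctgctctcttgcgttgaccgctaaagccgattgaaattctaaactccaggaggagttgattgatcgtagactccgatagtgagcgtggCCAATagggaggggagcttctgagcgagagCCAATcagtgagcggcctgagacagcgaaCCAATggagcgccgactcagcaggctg
Mthfd1, chr12:76254982-76255281, plus strand: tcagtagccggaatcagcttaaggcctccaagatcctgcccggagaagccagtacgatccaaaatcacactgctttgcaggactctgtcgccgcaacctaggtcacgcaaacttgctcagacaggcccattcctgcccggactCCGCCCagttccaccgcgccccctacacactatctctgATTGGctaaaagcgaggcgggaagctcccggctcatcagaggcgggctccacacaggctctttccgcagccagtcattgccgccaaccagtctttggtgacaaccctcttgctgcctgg
The Phgdh window holds 2 CCAAT boxes, the Psat1 window shown holds 3 and that of Mthfd1 holds 1 beside 1 GC box. RefSeq gave 8 windows for the 7 genes, since Psat1 has 2 starts, and the other Psat1 window holds 0 CCAAT boxes and 2 GC boxes. On either strand CCAAT occurred in 6 of the 8, beside 37.4% of 32851 windows of all genes, and GGGCGG in 4, beside 35.7%. The amino acid response core TGATGNAA, which the stress factor ATF4 is known to bind, and the E-box CACGTG, which MYC is known to bind, occurred in 0 of the 8, beside 3.97% and 7.15%. These are matches of letters in a short window and say nothing of binding.

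A further 108 genes of connected pathways were tested for organ differences in stem-called cells. Serine and glycine transport split: of 8 genes, 2 rose and 1 fell in the colon against the proximal small intestine. Slc1a4, which carries serine and other neutral amino acids, had a mean of 9.41 ± 2.78 CPM in the proximal small intestine, 13.3 ± 10.5 in the distal small intestine and 69.4 ± 19.2 in the colon (SD, n = 5 mice each). Its log2 difference of colon against proximal was 2.93 ± 0.33 (SE; edgeR adjusted p = 1.18e-05). Slc38a1, a glutamine and serine carrier, went the other way, with means of 162 ± 20 in proximal cells and 104 ± 12 in colonic ones (SD, n = 5 mice each; log2 difference -0.68 ± 0.13 SE, edgeR adjusted p = 0.00174), a call lost with the stem call at 3000 UMIs (edgeR adjusted p = 0.0528).

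The methionine cycle and transsulfuration list had 1 gene higher and 2 lower of 9. The higher one was Cbs, which joins serine to homocysteine on the way to cysteine. It rose stepwise along the gut, from 11.1 ± 3.5 in the proximal small intestine to 26.9 ± 8.6 in the distal small intestine and 149 ± 33 in the colon (SD, n = 5 mice each). The log2 differences were 1.39 ± 0.23 for distal against proximal and 3.86 ± 0.24 for colon against proximal (SE; edgeR adjusted p = 0.00165 and 3.14e-08). Of 6 genes that use serine, Sptlc2, a subunit of the enzyme that starts sphingolipid synthesis, rose by 0.59 ± 0.12 and Sdsl, a serine dehydratase-like gene, was lower (-0.93 ± 0.14) in the colon against the proximal small intestine (SE; edgeR adjusted p = 0.00224 and 0.000177).

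In the colon against the proximal small intestine 0 rose and 1 fell of 14 other folate genes, 0 rose and 1 fell of 3 genes of glycine cleavage, and 1 rose and 2 fell of 13 purine synthesis genes. Prps2, which makes the ribose donor for purines, had means of 142 ± 16 in proximal cells and 77.0 ± 18.0 in colonic ones (SD, n = 5 mice each; log2 difference -0.85 ± 0.16 SE, edgeR adjusted p = 0.00108). Of 33 genes of the ATF4 and amino acid response 6 rose and 3 fell. Aldh18a1, which starts proline synthesis, fell from 292 ± 25 to 79.4 ± 12.9 (SD, n = 5 mice each; log2 difference -1.89 ± 0.12 SE, edgeR adjusted p = 4.22e-08). Stc2, a secreted stress-induced glycoprotein, was at 0 in all 5 proximal samples and in 4 of 5 distal ones and at 10.2 ± 3.6 in the colon (SD, n = 5 mice). Asns, the asparagine synthetase often used as a readout of ATF4, stood at 75.0 ± 9.2 in proximal, 58.4 ± 26.1 in distal and 44.1 ± 9.8 in colonic stem-called cells (SD, n = 5 mice each). The median log2 difference of the ATF4 list for colon against proximal was 0.06, beside 0.0040 over all genes. Its relation to Phgdh was not tested. Of 12 genes of DNA replication 0 rose and 2 fell.

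**Figure D5:**
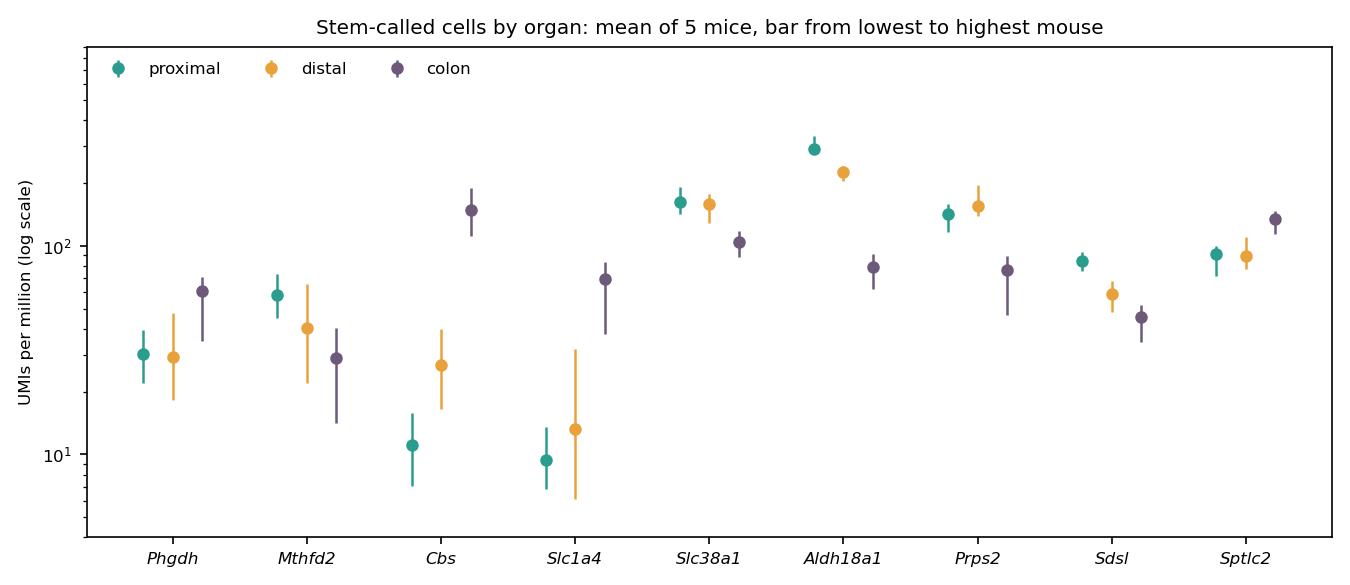
Level in stem-called cells by organ (colour) on a log axis, in CPM, for Phgdh, Mthfd2 and 7 genes of connected pathways; points are means of 5 mice and bars run from the lowest to the highest mouse. The colon points of Cbs, Slc1a4 and Sptlc2 lie above those of the small intestine, as for Phgdh, and those of Slc38a1, Aldh18a1, Prps2 and Sdsl lie below, as for Mthfd2.

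In total 24 of the 108 genes were called in the colon against the proximal small intestine, 12 against the distal small intestine and 8 between the 2 parts of the small intestine, where 18.2%, 12.8% and 5.46% of all genes were called. Of these 12, 5 and 3 were called whichever mouse was left out; Slc1a4, Slc38a1, Cbs, Sptlc2, Sdsl, Prps2 and Aldh18a1 are among the 12. For diet edgeR called 0 of the 108 in stem-called cells of each organ and 0 of 110 in the remaining cells, and DESeq2 called 0 as well. At an edgeR unadjusted p under 0.05 there were 5, 7 and 3 in proximal, distal and colonic stem-called cells, beside 3.72%, 2.67% and 2.54% of all genes. In the remaining cells there were 2, 6 and 0, beside 3.1%, 2.01% and 3.44% of all genes. Values next to the distal Phgdh difference were those of Asns (0.74 ± 0.26, unadjusted p = 0.0135) and Slc1a4 (1.41 ± 0.50, unadjusted p = 0.0125) in distal stem-called cells (SE; edgeR adjusted p = 1 for both). Ddit4, a stress-induced inhibitor of mTORC1, had negative differences in distal (-0.64 ± 0.22) and proximal stem-called cells (-0.65 ± 0.22; SE; edgeR adjusted p = 1 and 0.813).

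The genes whose levels followed each member most closely over the 15 stem-called sums were listed as a description; the points share mice, organs and sequencing depth. For Phgdh they were Inf2 (Pearson r = 0.907) and Ripk2 (r = 0.891), for Psat1 Slc39a10 (r = 0.917) and Scp2 (r = 0.904), and for Psph Oas1a (r = 0.826) and Etf1 (r = 0.814). For Shmt1 Slc25a39 (r = 0.855) was among them, and for Shmt2 they were Rpusd4 (r = 0.922) and Gucd1 (r = 0.885). For Mthfd1 they were Atad3a (r = 0.890) and Cltc (r = 0.878), and for Mthfd2 Slc35g1 (r = 0.922) and Rnf149 (r = 0.921). No member was among the 2 closest genes of another member. Psat1 and Mthfd2 were higher in control mouse 2, sequenced more deeply, than in control mouse 1 in 6 of 6 pools of organ and stem call, whereas Shmt1, Shmt2 and Mthfd1 were higher in 0 of 6; the part of depth was not tested.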

How the data were processed

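The authors' deposited table held raw UMI counts per gene and cell from Seq-Well libraries (mm10, per the labels), with a cell table giving mouse, organ, diet and the authors' stem call. The cell table numbers the control mice 1 and 3 but the sample titles 1 and 2; cells of mouse 3 were assigned to the samples of control mouse 2, the only ones left. The aligner is not given in the sources used here. Counts were summed per mouse, organ and stem call. All 7 genes, and all lists, were chosen with earlier results of these data known. Sums were fitted with edgeR 4.0.16 (TMM, filterByExpr, quasi-likelihood F test, 6 groups of diet and organ, Benjamini-Hochberg over all genes), after tests on simulated data. DESeq2 1.42.0 was an alternative. The SE is the log2 fold change over the root of F. Ratios between pools used a pseudocount of 1 CPM (UMIs per 1000000). Pathway genes were named by largest called change, at most 5 per list and comparison, or the 2 smallest p-values. No doublet caller was run; 1 alternative left out cells above the 98th percentile of UMIs. Samples of the same mouse deviated together in other organs (r over 0.1 in 11 of 12 pairs, those of the 2 control mice, whose deviations mirror each other, counted once). A gene at 0 in a sum gives no limit, because low genes may have been dropped before deposit. P-values measure the spread between samples of the same diet and organ, each from 1 mouse. Without the mouse as a block, the fit treats the organs of a mouse as independent samples. Counting intervals were not used. Some genes are not reported here.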

Additional observations from a re-analysis of the deposited data

How the results depend on the processing

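With 2 control mice, 1 animal can decide a call. Of the 48 single values called or with an unadjusted p under 0.05, 576 recalculations left 485 on the same side of the threshold, 89 lost the call, 2 gained it and 0 reversed. DESeq2 called 1 of the 7 genes for diet in distal cells without the stem call, where edgeR called 0. The shares over all genes that each tested were 0.101% and 0.00699%. With the replicate block of the mouse, members called were 2 for colon against distal and 1 for distal against proximal (1 and 0 without it). Leaving out each mouse gave 0 to 1 members for colon against distal and 1 to 3 for colon against proximal, the low values without control mouse 2 and, for the latter, also without high fat mouse 3. Among the other pathway genes the block gave 16 (distal against proximal), 38 (colon against proximal) and 27 (colon against distal) in place of 8, 24 and 12, and leaving out each mouse gave 3 to 6, 14 to 22 and 6 to 10. With the stem call at 3000 UMIs, 3 pathway genes were called for distal against proximal, and members higher than other cells in every mouse numbered 2 in proximal and 2 in distal in place of 4 and 5. The cell table numbers control mouse 2 as 3, and no block was run by that numbering. The replicate block by mouse number used the sample titles and changed no diet call of a member. Same title numbers in different diets need not be related (r over 0.1 in 3 of 6 pairs). Their r was 0.28 to 0.31 for mice numbered 1 and -0.01 to 0.05 for mice numbered 2. Over all genes, diet calls in proximal stem-called cells were 15, with 41 by DESeq2, 49 with that block and 4 to 17 with a mouse left out; organ calls with the mouse as a block were 2476, 3490 and 1336 for colon against distal, colon against proximal and distal against proximal. RLE scaling, the filter on low counts, the depth of the mouse as a factor and leaving out the cells with most UMIs kept each member count within 1.5 times. Depth limits Psph most, and Mthfd2 and Psat1 in shallow colon libraries.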
